A study of Mus musculus with 138 samples.

Results

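The genes described here are 10 markers of the dura mater, the outer layer of the meninges that lies under the calvarial bones: Nppc, Itgbl1, Matn4, Foxd1, Shisa3, Gpha2, Mia, Scara5, Fxyd5 and 1500015O10Rik. They were selected as dura markers on their measured levels in single cells of the mouse coronal suture. There Matn4, Mia, Fxyd5 and Scara5 were highest outside the dura cells, at the younger or at both ages studied. All 10 were found among the 55487 genes of the deposited count tables. They were followed through suture mesenchyme (SM) and osteogenic fronts (OFs) captured by laser from wild-type C57BL/6J embryos that carried no transgene and received no treatment. The captured tissue forms 20 groups of 5 embryos: the SM of the frontal, coronal, lambdoid and sagittal sutures, the frontal OF of the frontal suture, the frontal and parietal OFs of the coronal suture, the interparietal and parietal OFs of the lambdoid suture and the parietal OF of the sagittal suture, each taken at E16.5 or at E18.5 (days of embryonic age). A further 18 second libraries of the coronal groups, 16 libraries of complete sutures at E18.5 and 4 single-cell libraries of the coronal suture, 2 per age and each from pooled embryos of both sexes, were read beside them. The single cells chose the genes, so their values there are a description, and only the captured tissue was tested.

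The dura mater is a fibrous sheet that is bound to the inner face of the skull bones, passes under every suture and is known to send signals to the osteogenic cells above it. A laser section through a suture therefore borders on dura along its inner edge, while the osteogenic fronts hold the bone-forming cells at the margins of the bones and the SM is the fibrous tissue between them. The members have unlike roles. Nppc encodes C-type natriuretic peptide and Gpha2 a glycoprotein hormone subunit, 1500015O10Rik (also named Ecrg4) encodes the secreted peptide precursor augurin, and Itgbl1, Matn4 and Mia encode secreted proteins of or near the extracellular matrix. Scara5 is a scavenger receptor that binds ferritin, Fxyd5 a small membrane protein that associates with the sodium pump, Shisa3 a protein of the endoplasmic reticulum that restrains Wnt and FGF receptors, and Foxd1 a forkhead transcription factor known from kidney stroma.

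On the mouse mm10 (GRCm38) assembly the members lie on 7 chromosomes: Nppc at chr1:86666291-86670571, 1500015O10Rik at chr1:43730602-43742578, Matn4 at chr2:164389393-164405160, Shisa3 at chr5:67607882-67623552, Mia at chr7:27179742-27181157, Fxyd5 at chr7:31032722-31042481, Foxd1 at chr13:98354242-98359305, Itgbl1 at chr14:123659971-123975618, Scara5 at chr14:65666403-65764826 and Gpha2 at chr19:6226380-6227768. Reads were counted over exons without regard to strand. Shisa3 overlaps Atp8a1, Gpha2 overlaps Ppp2r5b, Matn4 overlaps Rbpjl and 1500015O10Rik overlaps Gm29155 on the other strand. Itgbl1 overlaps Gm9308 on the other strand and Gm25272 on the same strand. Mia overlaps Gm21983 and Fxyd5 overlaps Mir7050, both on the same strand. Reads from such partners cannot be told apart where exons overlap. Nppc, Foxd1 and Scara5 overlap no annotated gene. The promoters of the members with the lowest and the highest median level per kilobase in captured SM are shown for their sequence, from RefSeq on GRCm38.p6, from 250 bases before to 50 bases after the start, with the letters TATAAA in capitals.
Nppc, chr1:86670524-86670823, minus strand: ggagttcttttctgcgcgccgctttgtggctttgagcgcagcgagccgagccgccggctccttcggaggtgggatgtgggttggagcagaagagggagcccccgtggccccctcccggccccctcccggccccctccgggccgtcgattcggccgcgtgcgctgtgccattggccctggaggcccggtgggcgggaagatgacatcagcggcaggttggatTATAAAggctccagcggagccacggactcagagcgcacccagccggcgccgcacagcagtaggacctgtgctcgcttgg
1500015O10Rik, chr1:43730352-43730651, plus strand: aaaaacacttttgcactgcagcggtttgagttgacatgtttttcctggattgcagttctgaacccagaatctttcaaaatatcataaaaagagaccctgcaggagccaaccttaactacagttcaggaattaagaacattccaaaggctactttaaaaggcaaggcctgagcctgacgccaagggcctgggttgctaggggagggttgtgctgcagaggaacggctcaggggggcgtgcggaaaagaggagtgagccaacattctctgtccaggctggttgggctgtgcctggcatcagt
Promoter windows were given for 9 of the 10 members, with 2 windows for Matn4. TATAAA, read on both strands, was in 13.6% of all 32851 promoters of this length and in 1 member window, that of Nppc, where it starts 29 bases before the start of transcription. The forkhead motif GTAAACA was in 3.65% of all promoters and the SOX motif ACAATG in 12.6%, both read on both strands, and neither was in a member window.

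The first captured libraries held 7305627 to 34518477 counts with a median of 14244957, the coronal ones 20133332 or more, the second coronal libraries 5530060 to 17388841 and the complete sutures 8903413 to 15155332. Despite their depth, the first coronal libraries of E16.5 had 17274 to 22824 genes with a count. Frontal libraries of that age had 25118 to 28397 and lambdoid ones 21967 to 25302. The part of this in the low coronal levels below was not tested. Levels below are in CPM, the counts of a gene scaled to a common total by the library's own total count, and differences are log2 differences from a fit over all genes with trimmed-mean (TMM) scaling, whose factors ran from 0.495 to 1.30. A gene was tested if it reached 1 CPM in over 10% of the 100 captured libraries, which 19768 genes and 8 of the 10 members did. Nppc and Mia did not: Nppc was at 0 in 56 of 100 libraries and at most 1.42 CPM, and Mia was at 0 in 36 and at most 1.13 CPM. A count of 0 allows up to 3 counts, which are worth 0.0869 to 0.411 CPM at these depths.

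In the single cells 6 of the 10 members had their highest level in dura mater-like cells at E16.5 and 8 of 10 did at E18.5. Of 1530 and 1482 barcodes in the E16.5 libraries 497 and 359 passed the filter on detected genes, and 466 and 337 were kept after cells far from the median were also left out. Of 2628 and 1999 barcodes at E18.5 2625 and 1624 passed the first filter and 2412 and 1577 were kept. Median UMIs (unique molecules) per cell were 2501 and 2121 in the younger and 18476 and 7131 in the older libraries. The members were kept out of the clustering. The E16.5 dura mater-like cluster held 61 cells and 7 markers of the dura list among its 10 leading genes, such as Col14a1 and Atp1b1. At E18.5, one dura mater-like cluster of 340 cells was led by 7 such markers, among them Atp1b1, Itih5 and Bace2. The other, of 318 cells, was led by Col14a1 and had only 2 markers of the list among its leading genes, beside the cartilage gene Chad.

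1500015O10Rik was the most abundant member in dura mater-like cells, with 2751 and 1756 CPM (UMIs scaled to the cluster's total) in the 2 E16.5 libraries. At E18.5 it stood at 3722 and 2626 in the Atp1b1-led cluster and at 1997 and 1393 in the Chad-bearing one. In erythroid-like cells of the second E18.5 library, which should lack it, it stood at 56.5. Nppc, which was hardly seen in captured tissue, had 317 and 104 CPM in the E16.5 dura mater-like cells and 353 to 472 in both E18.5 clusters. After each cell was thinned to 2000 UMIs, 49.5% and 47.3% of cells of the Atp1b1-led cluster had an Nppc UMI, against 1.44% of macrophage-like cells in the first library and 0 of 73 in the second, which allows up to 5.00% by the Wilson interval. Unthinned, those shares were 97.2% and 78.2% against 9.39% and 4.11%, at median depths of 17077, 6580, 18624 and 13598 UMIs.

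The 2 dura mater-like clusters of E18.5 did not carry the members alike. Gpha2 had 716 and 588 CPM in the Chad-bearing cluster and 86.4 and 18.46 in the Atp1b1-led one. Matn4 followed the same order, with 348 and 282 against 115 and 55.4. Foxd1 went the other way, with 63.1 and 68.2 in the Chad-bearing cluster and 148 and 192 in the Atp1b1-led one, as did Fxyd5 with 553 and 402 against 1484 and 1028. Both libraries gave the same order for these 4 genes, and since the clusters were cut from the same cells this is a description.

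Several members were not limited to dura mater-like cells. Matn4, a cartilage matrix protein of the matrilin family, was highest in cartilage-like cells at both ages, with 829 and 805 CPM at E16.5 and 485 and 640 later. Mia, which chondrocytes secrete, was also highest there, at 285 and 376 and then at 854 and 1014. 1500015O10Rik itself reached 1374 and 859 in E16.5 cartilage-like cells. Fxyd5 was highest in osteoclast-like cells at E16.5, at 940 and 601, and stood at 655 and 779 in macrophage-like cells at E18.5. Scara5 was highest at E16.5 in hypodermis-like cells of the first library, at 399, a cluster with 122 of its 123 cells in that library. Gpha2 stood at 135 and 157 CPM in E18.5 ectocranial and suture mesenchyme-like cells, above its 86.4 and 18.46 in the Atp1b1-led cluster, so that it counts among the 8 of 10 only through the Chad-bearing cluster. Itgbl1 stood at 128 and 145 in the same mesenchyme-like cells, against 183 and 129 in the Atp1b1-led cluster. Matn4, Mia, Fxyd5 and Scara5 were each seen at their highest level outside dura mater-like cells at 1 age or both.

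Cells with several members at once were found among dura mater-like and cartilage-like cells. At 2000 UMIs per cell, 3 or more members were seen in 17 of 20 and 11 of 19 dura mater-like cells at E16.5. At E18.5 the shares were 88.4% and 83.6% in the Atp1b1-led cluster and 82.3% and 68.6% in the Chad-bearing one. Cartilage-like cells reached 4 of 10 and 9 of 14 at E16.5, the latter share no lower than in dura mater-like cells of that library, on few cells. Cells under 2000 UMIs were left out, so 14 of 38 cartilage-like and 19 of 28 dura mater-like cells were counted in that library. At E18.5 cartilage-like cells reached 53.4% and 63.6%. Ectocranial and suture mesenchyme-like cells then stood at 8.45% and 7.27% and macrophage-like cells at 2.53% and 1.37%. The E18.5 libraries shared 5 barcodes, 4 of them among kept cells, and the E16.5 libraries 1, which was not kept.

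**Figure D1:**
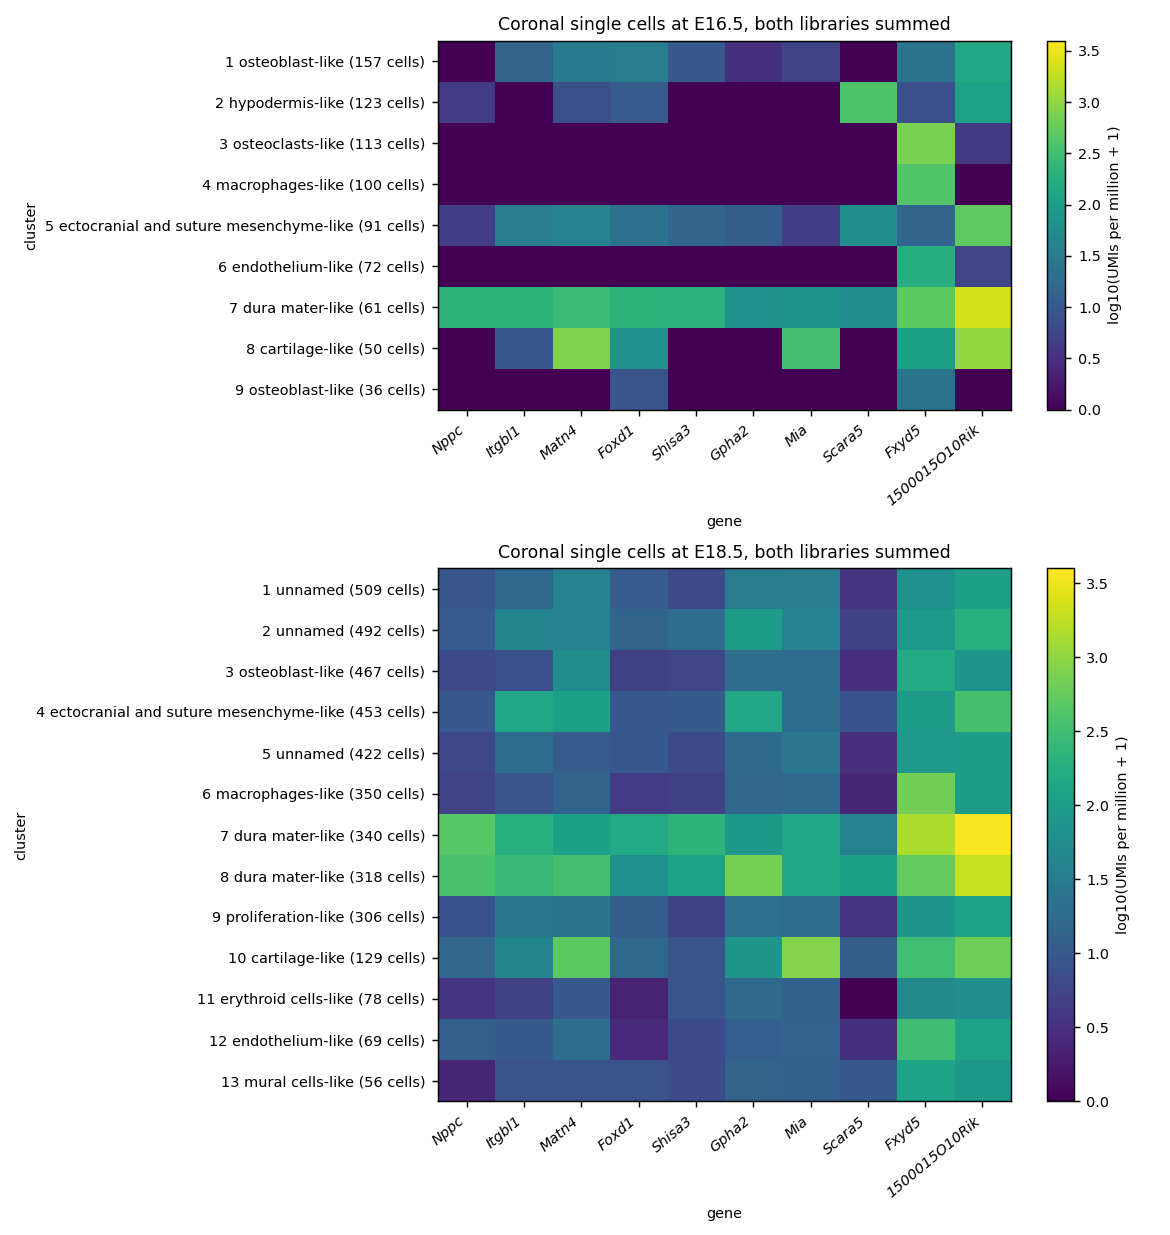
Level of the 10 members in each single-cell cluster at E16.5 and E18.5, as log10(CPM + 1) of UMIs over both libraries summed, with clusters in rows and genes in columns. 1500015O10Rik is the strongest member of the dura mater-like rows, Matn4 and Mia are highest in the cartilage-like row at both ages, and Gpha2 is concentrated in 1 of the 2 dura mater-like clusters of E18.5.

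In captured tissue, 4 members marked the SM against the OFs: 1500015O10Rik, Itgbl1, Matn4 and Shisa3. Averaged over the 12 comparisons of an SM with an OF of the same suture and age, 1500015O10Rik was 2.20 log2 units higher in SM (SE 0.117, adjusted p = 4.1e-31 by the quasi-likelihood test of edgeR, adjusted after Benjamini and Hochberg), Itgbl1 1.97 (SE 0.128, adjusted p = 2.0e-25), Matn4 1.84 (SE 0.237, adjusted p = 8.6e-11) and Shisa3 1.68 (SE 0.153, adjusted p = 4.4e-17). That is 4 of 8 members tested, where 28.6% of all genes tested were called higher and 27.9% lower. Foxd1 stood at 0.38 (adjusted p = 0.054), Scara5 at 0.20 (adjusted p = 0.50), Fxyd5 at -0.13 (adjusted p = 0.29) and Gpha2 at -0.24 (adjusted p = 0.53). In bulk tissue of this kind, fewer cells of a type and less RNA per cell cannot be told apart.

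Taking the 12 comparisons singly gave 96 member tests, of which 38 were called higher in SM and 3 lower. The coronal and lambdoid sutures enter with both of their OFs against the same SM libraries. Over all genes 8.24% of tests were higher and 10.8% lower. The median of the member differences was 0.79 and that of all genes 0.015. 1500015O10Rik was called higher in 10 of 12 comparisons, Itgbl1 and Shisa3 in 9, Matn4 in 8, and Gpha2 and Scara5 in 1 each. Foxd1 and Fxyd5 were called higher in none, Fxyd5 was called lower in 2 and Scara5 lower in 1. By suture, the sagittal SM had 8 of 16 tests higher, where 8.69% of all gene tests were higher and 12.8% lower, the lambdoid 15 of 32 (7.69% and 11.9%) and the frontal 7 of 16 (3.5% and 6.02%). The coronal SM had 8 of 32 higher (10.9%) and all 3 of the lower calls (10.9%). Without the coronal suture 30 of 64 tests were higher and 0 lower by edgeR.

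The libraries themselves showed the same split. In the frontal and sagittal sutures at both ages, all 5 SM libraries stood above all 5 OF libraries for the same 4 members, Itgbl1, Matn4, Shisa3 and 1500015O10Rik, where 10.8% (frontal) and 14.6% (sagittal) of all genes did so at E16.5, then 5.2% and 15.5% at E18.5. In the lambdoid suture 3 to 5 members did, always with Itgbl1, Matn4 and 1500015O10Rik among them (11.6% and 19.4% of all genes against the interparietal and parietal OF at E16.5, 9.35% and 12.8% at E18.5, and 9.71% over all 12 comparisons of the study). In the coronal suture Shisa3 alone did so against the frontal OF (2.4% of all genes) and the parietal OF (3.94%) at E16.5, 3 members did against the parietal OF at E18.5 (9.25%), and 0 against the frontal OF at E18.5 (1.73%).

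The summed level of the 10 members ran from 63.6 to 540 CPM in the 40 SM libraries, with a median of 301, and from 10.6 to 228 CPM in the 60 OF libraries, with a median of 67.1. The ranges overlapped only through the coronal SM and the frontal OF of the frontal suture. Coronal SM libraries summed to 63.6 to 136 CPM at E16.5 and 104 to 173 CPM at E18.5, while every other SM library was at 191 CPM or above. The frontal OF of the frontal suture was the highest OF group, at 174 to 220 CPM at E16.5.

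Matn4 had the largest single difference, but 1500015O10Rik, the augurin gene, had the largest mean over the 12 comparisons. In the sagittal SM at E16.5 it stood at 214, 260, 189, 224 and 193 CPM, and in the parietal OF of the same embryos at 23.8, 17.5, 30.8, 21.7 and 21.3. At E18.5 the sagittal SM held 120, 154, 139, 165 and 131 CPM against 12.5, 7.65, 13.6, 10.2 and 9.47 in the OF. No OF library came near an SM library at either age, and the log2 differences were 3.22 (SE 0.37, adjusted p = 1.4e-11) and 3.69 (SE 0.38, adjusted p = 1.3e-13).

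The frontal and lambdoid SM held a lower level of this gene, without overlap with their OFs. Frontal SM had 55.6, 62.5, 55.1, 64.03 and 69.99 CPM at E16.5, against 14.3, 20.5, 23.8, 18.05 and 27.04 in the frontal OF. Lambdoid SM had 52.5, 41.1, 52.9, 43.4 and 54.9 CPM at E18.5, against 6.32, 5.25, 5.23, 4.25 and 3.93 in the parietal OF and 7.56, 8.14, 6.95, 4.90 and 6.53 in the interparietal OF. The lambdoid differences at E18.5 were 3.13 and 2.77, and the frontal ones 1.498 at E16.5 and 1.83 at E18.5.

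The coronal suture was the exception. Coronal SM held 7.53, 6.10, 1.41, 2.16 and 1.41 CPM of 1500015O10Rik at E16.5, then 8.54, 6.46, 9.35, 6.29 and 6.75 at E18.5, below every library of the other SMs. The coronal parietal OF was lower still, at 0.0335 to 1.98 CPM at E16.5 and 0.223 to 1.72 at E18.5, and the differences of 2.55 and 2.41 passed the test. The coronal frontal OF held 2.88, 6.11, 2.51, 0.591 and 1.85 CPM at E16.5, then 10.4, 4.69, 12.3, 12.1 and 7.10 at E18.5. It overlapped the coronal SM at both ages, with differences of 0.24 (SE 0.37, adjusted p = 0.66) and -0.35 (SE 0.35, adjusted p = 0.76).

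Itgbl1, a secreted protein built of integrin-like repeats, followed the same pattern with a narrower range between sutures. Sagittal SM held 80.2, 69.3, 75.9, 83.5 and 86.4 CPM at E16.5, then 95.4, 104, 119, 107 and 102 at E18.5, against 5.32 to 21.2 in the parietal OF over both ages. Frontal SM moved from 32.0, 51.2, 27.7, 69.2 and 31.5 CPM at E16.5 to 85.4, 108, 117, 108 and 120 at E18.5. The frontal SM and OF did not overlap at E16.5, but the difference of 1.01 missed the threshold (adjusted p = 0.11), and at E18.5 it was 2.13 (adjusted p = 4.4e-05). In the coronal suture Itgbl1 was higher in SM than in the parietal OF by 2.77 and 1.61 and did not differ detectably from the frontal OF, at 0.47 (SE 0.39, adjusted p = 0.38) and 0.05 (SE 0.39, adjusted p = 0.98).

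Matn4, a matrilin, showed the sharpest contrast between the coronal suture and the rest. Sagittal SM at E18.5 held 37.3, 36.6, 59.8, 40.9 and 19.6 CPM against 2.37, 0.830, 4.06, 1.46 and 0.724 in the OF, a difference of 4.32 (SE 0.73, adjusted p = 1.0e-06). Frontal SM was at 38.3 to 71.1 CPM at E16.5 and 56.9 to 72.9 at E18.5. Coronal SM held 0.817, 0.519, 0, 2.11 and 0.141 CPM at E16.5, then 0, 0.390, 0.817, 0.484 and 0.397 at E18.5. None of the 4 coronal comparisons was called for Matn4, the frontal OF at E18.5 coming closest at -2.36 (adjusted p = 0.068). Of the 8 calls higher in SM, that of the frontal suture at E18.5 was lost with total-count scaling, with DESeq2 and without replicate 1, 2 or 4 (adjusted p = 0.055 to 0.16), and that of the lambdoid SM against the interparietal OF at E16.5 with DESeq2 and without replicate 1, 2 or 4 (adjusted p = 0.062 to 0.15).

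Shisa3, the Wnt and FGF receptor modulator, had its own order of sutures. Frontal SM held 223, 173, 206, 156 and 233 CPM at E16.5, then 110, 150, 111, 114 and 110 at E18.5, against 56.2 to 77.8 and 16.9 to 64.6 in the frontal OF. Coronal SM came next, with 81.7, 59.1, 82.2, 100 and 46.5 CPM at E16.5, then 65.4, 66.4, 44.1, 44.7 and 42.5 at E18.5. It is the 1 member whose coronal SM stood above both OFs at E16.5 without overlap, and the differences were 1.44 from the frontal and 2.97 from the parietal OF. At E18.5 the frontal OF overlapped the SM, with 46.6, 21.5, 48.7, 49.6 and 50.4 CPM, and the difference was 0.27 (adjusted p = 0.87). In the lambdoid suture at E16.5 all 3 tissues were at 1.16 to 10.9 CPM and did not differ detectably, whereas at E18.5 the SM was higher by 2.78 than the interparietal and 2.17 than the parietal OF, the latter a call lost with voom (2.35, adjusted p = 0.066). The frontal calls were lost without replicate 3 or 5 at E16.5 (adjusted p = 0.079 and 0.10) and without replicate 4 or 5 at E18.5 (adjusted p = 0.064 and 0.057).

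Foxd1 was low in all captured tissue, at 0.492 to 20.9 CPM in SM and 0 to 13.4 CPM in OFs. The frontal SM at E16.5 was highest, with 12.4, 20.9, 16.7, 15.4 and 13.7 CPM against 9.46, 13.4, 12.6, 12.1 and 10.4 in the OF. SM was higher than the OF of the same embryo in 44 of 60 pairs, but no single comparison was called. Its mean difference was on the other side of the threshold with embryo as a replicate block (0.50, adjusted p = 0.029), with median-ratio or total-count scaling, with DESeq2 or voom, with the second coronal libraries, and without replicate 1 or 5 (0.39 to 0.58, adjusted p = 0.0056 to 0.043).

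Scara5, the ferritin receptor, was called higher in SM in only 1 comparison, lambdoid SM against the parietal OF at E18.5, by 2.13 (adjusted p = 0.024). That call was lost without replicate 1 (1.80, adjusted p = 0.14) or replicate 2 (1.68, adjusted p = 0.12). SM was higher in all 5 embryos of 6 comparisons and lower in all 5 of 1 comparison. Lambdoid SM held 58.2, 43.4, 53.8, 25.6 and 137 CPM at E16.5, the library at 137 CPM being the highest of all 100. The summed level of 7 hypodermis markers in the same libraries was 323, 211, 229, 80.9 and 777 CPM. The order of the 5 libraries was the same for both, and it was again the same at E18.5, with Scara5 at 45.002, 49.9, 24.7, 30.7 and 9.81 CPM and the hypodermis sum at 147, 292, 76.6, 133 and 31.8. The part of hypodermis cells in this level was not tested. In the coronal suture at E18.5 Scara5 was lower in SM than in the frontal OF, at 0, 0, 1.27, 1.49995 and 3.97 CPM against 11.9, 1.41, 7.86, 14.2 and 11.7, a difference of -2.85 (SE 0.77, adjusted p = 0.017). This call was lost with the second coronal libraries (-1.94, adjusted p = 0.10), with the suture and age fitted by itself (adjusted p = 0.14), and without replicate 1, 2 or 4 (adjusted p = 0.053 to 0.14).

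Fxyd5, the sodium pump regulator, did not separate SM from OF in most sutures, at 2.23 to 87.3 CPM in SM and 1.35 to 53.3 CPM in OFs. Both of its calls were lower in coronal SM at E16.5, by -0.98 against the frontal and -0.90 against the parietal OF (adjusted p = 0.012 and 0.018). Coronal SM held 2.23, 4.45, 9.87, 11.6 and 2.70 CPM there and overlapped both OFs. With the second coronal libraries in place of the first, these differences were -0.34 (adjusted p = 0.53) and 0.25 (adjusted p = 0.62), and both calls were also lost with total-count scaling, with the suture and age fitted by itself and without replicate 2 (adjusted p = 0.070 to 0.52). The first was further lost without replicate 3 (adjusted p = 0.11) and the second with voom (adjusted p = 0.30) and without replicate 4 (adjusted p = 0.053). The summed macrophage markers, a cell type that also carries Fxyd5 in the single cells, were at 18.51 to 383 CPM in SM and 34.0 to 238 CPM in OFs, and their part was not tested.

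Gpha2, a hormone subunit, was at most 9.23 CPM in the first captured libraries and 12.6 CPM in the second coronal ones. Its call was in the coronal suture at E18.5, where SM held 9.06, 9.23, 1.63, 0.435 and 0.944 CPM and the parietal OF 1.51, 0.0692, 0.406, 0.264 and 0.275, a difference of 2.90 (SE 0.95, adjusted p = 0.022). 2 of the 5 SM libraries carried most of it. With embryo as a replicate block the difference was 2.39 (adjusted p = 0.080), and with the second coronal libraries 0.93 (adjusted p = 0.47). The call was also lost with the suture and age fitted by itself (adjusted p = 0.061) and without replicate 2 or 4 (adjusted p = 0.17 and 0.056). Nppc and Mia were too low to test: SM was above the OF of the same embryo in 30 of 60 pairs for Nppc and in 35 of 60 for Mia. The other pairs were lower or tied, so these counts do not split into higher and lower.

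**Figure D2:**
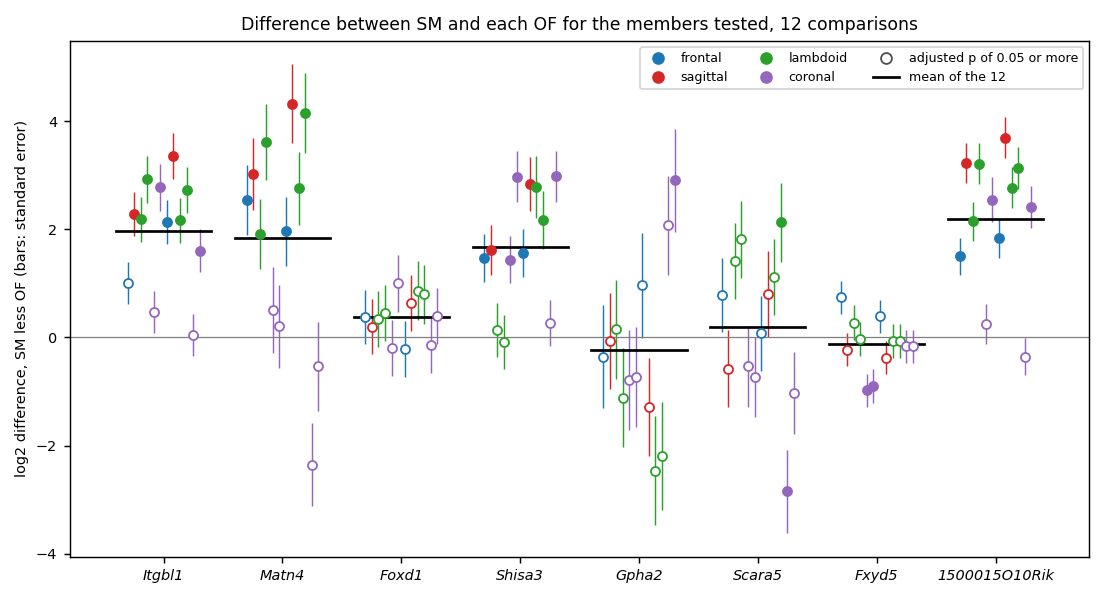
Log2 difference of SM less OF for each of the 8 tested members in the 12 comparisons, coloured by suture, with bars of 1 SE, filled points where the adjusted p was under 0.05 and a black line at the mean of the 12. All points of Itgbl1 and all but 1 of 1500015O10Rik lie above 0, those of Matn4 do so outside the coronal suture, and those of Fxyd5 and Gpha2 scatter on both sides of 0.

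Per kilobase of exon, the scale on which genes can be compared, the median over all SM libraries was 61.0 CPM for 1500015O10Rik, 14.7 for Itgbl1, 7.67 for Matn4, 7.07 for Shisa3, 3.77 for Fxyd5, 1.55 for Scara5, 1.27 for Foxd1 and 0.912 for Gpha2. These medians pool sutures with unlike levels. In coronal SM at E16.5 the mean was 73.9 CPM for Shisa3 and 3.72 CPM for 1500015O10Rik, before scaling by length. Of the members' summed counts per kilobase in captured SM, 1500015O10Rik made up 62.0%, Itgbl1 11.7%, Shisa3 11.3%, Matn4 4.75% and Nppc 0.195%. In OFs 1500015O10Rik made up 34.7%, Itgbl1 14.0% and Shisa3 15.1%. Of the members' UMIs in dura mater-like cells at E16.5 and E18.5, 1500015O10Rik made up 55.5% and 50.8%, Itgbl1 5.22% and 3.95%, Shisa3 4.95% and 3.03% and Nppc 5.22% and 7.52%. Captured libraries count over whole transcripts and single cells count 3' ends, and without scaling by length the share of 1500015O10Rik in SM was 24.8%, below rather than above its shares of UMIs, so no order between tissue and cells is read from these values.

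The SM of the 4 sutures differed in which members they held. Against the mean of the other SMs at the same age, 21 of 64 member tests were higher (13.2% of all gene tests) and 18 lower (11.9%). These tests are not independent, since an extreme level in any SM shifts the mean that the others are set against. 1500015O10Rik led in the sagittal SM, higher by 3.11 at E16.5 and 2.48 at E18.5. Shisa3 led in the frontal SM, by 3.22 and 2.67, as did Fxyd5 at E16.5 by 2.54. Scara5 was higher in frontal SM by 2.48 and 2.81 and in lambdoid SM by 2.66 at both ages. Matn4 was higher in all 3 SMs other than the coronal, by 1.484 to 2.92. Those calls cannot be separated from its low coronal level, which enters each mean they are set against. At E16.5 mean Matn4 was 57.4, 48.2 and 41.9 CPM in frontal, sagittal and lambdoid SM, and 0.717 CPM in coronal SM. The Matn4 call in lambdoid SM at E16.5 was lost with DESeq2 (adjusted p = 0.093), with the second coronal libraries (1.08, adjusted p = 0.13) and without replicate 1 or 4 (adjusted p = 0.094 and 0.065). At E16.5 Itgbl1 in sagittal and Foxd1 in frontal SM were also called higher. This Foxd1 call was lost without replicate 1, 2, 3 or 5 (adjusted p = 0.051 to 0.12). Outside the coronal suture, Scara5 in sagittal SM and Shisa3 in sagittal and lambdoid SM were called lower at both ages. The Shisa3 call in sagittal SM at E18.5 was lost without replicate 1 or 5 (adjusted p = 0.056 and 0.088). Fxyd5 was called lower in lambdoid SM at E18.5. That call was lost with median-ratio or total-count scaling, with voom and without each replicate in turn (adjusted p = 0.0503 to 0.15). The Scara5 calls in sagittal SM were lost with voom (adjusted p = 0.40 and 0.25) and without replicate 5 (adjusted p = 0.37 and 0.058). The E16.5 call was also lost with total-count scaling and without replicate 2 or 4 (adjusted p = 0.053 to 0.060).

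Coronal SM was lower than the other SMs for Matn4 by -5.65 at E16.5 and -6.82 at E18.5, for 1500015O10Rik by -4.15 and -3.22, for Scara5 by -3.44 and -3.39, for Foxd1 by -1.65 and -1.10 and for Itgbl1 by -1.30 and -1.02. It was higher for Shisa3, by 2.02 and 1.051, and at E18.5 for Gpha2, by 2.75 (adjusted p = 0.00059). Fxyd5 was lower by -1.37 at E16.5, a value of 0.09 with the second coronal libraries, and higher by 0.68 at E18.5. The summed cartilage markers were at 64.8 to 148 CPM in coronal SM at E16.5 and at 398 CPM or more in the other SMs of that age, then at 246 to 350 against 200.1 to 495 CPM at E18.5. The hypodermis sum was at 2.81 to 13.3 CPM in coronal SM at E16.5, at 8.08 to 30.7 in sagittal SM and at 62.2 to 777 in frontal and lambdoid SM. At E18.5 it was at 15.6 to 29.1 CPM in coronal, 15.96 to 29.4 in sagittal, 27.6 to 119 in frontal and 31.8 to 292 in lambdoid SM. The macrophage sum was at 18.51 to 75.0 CPM in coronal SM at E16.5 and at 129.7 CPM or more in the other SMs. At E18.5 it was at 166 to 255 CPM and overlapped theirs. The summed osteoblast markers were at 5530 to 11602 CPM in coronal SM at E16.5, against 12899 CPM or more. At E18.5 they were at 8923 to 11146 CPM, against 18245 CPM or more. The part of these lists in the coronal differences was not tested. At E18.5 the Shisa3 call was lost with DESeq2 (adjusted p = 0.051), with the second coronal libraries (0.80, adjusted p = 0.070) and without replicate 2 (adjusted p = 0.051). The E18.5 calls of Fxyd5 and Foxd1 were also lost under some scalings or without single replicates. Without scaling, the median of all genes in coronal SM at E16.5 was -0.60 relative to the other SMs, and the TMM fit brought it to 0.0065, so the values above are relative to that shift. Each suture may have been prepared as a set of libraries of its own, and the suture and the set cannot be told apart in the captured tissue.

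The complete sutures were deposited as normalization controls with 4 title prefixes, each with 1 library of every suture, and the labels do not say what the prefixes mark. All are labelled replicate 1, so their values are given without a test. 1500015O10Rik was highest in the sagittal suture under 4 of 4 prefixes, at 141 to 292 CPM, and lowest in the coronal in 4 of 4, at 33.4 to 75.3. Shisa3 was highest in the frontal suture in all 4, at 211 to 275 CPM, and Itgbl1 in the sagittal, at 184 to 240. Matn4 was at 5.41 to 9.72 CPM in coronal sutures and at 28.5 to 82.8 in the others. Coronal was the lowest suture under 4 of 4 prefixes for Itgbl1, Matn4, Foxd1, Shisa3, Scara5 and 1500015O10Rik.

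For Shisa3, complete and captured tissue gave unlike orders. Complete coronal sutures held 70.5 to 83.6 CPM and complete lambdoid ones 95.03 to 124, whereas captured coronal SM of the same age was at 42.5 to 66.4 CPM and captured lambdoid SM at 2.89 to 14.2. Nppc and Gpha2 were highest in the complete coronal suture under 4 of 4 prefixes. Nppc reached 1.89 to 3.96 CPM there, against at most 1.42 CPM in the first captured libraries of both ages and 2.08 CPM in the second coronal ones, and Gpha2 reached 13.2 to 31.2 CPM, against 0.389 to 5.22 in the other complete sutures. With SM and OFs of E18.5 pooled, all 8 tested members were higher in complete sutures than in captured tissue, by 1.21 for Gpha2 to 3.41 for Shisa3 on the log2 scale with 0.5 CPM added, where the median of all genes was 0.026. This did not hold against every SM by itself: Matn4 was at 28.5 to 35.9 CPM in complete frontal sutures and at 56.9 to 72.9 CPM in frontal SM of E18.5, and Itgbl1 at 96.1 to 105 and 85.4 to 120 CPM.

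**Figure D3:**
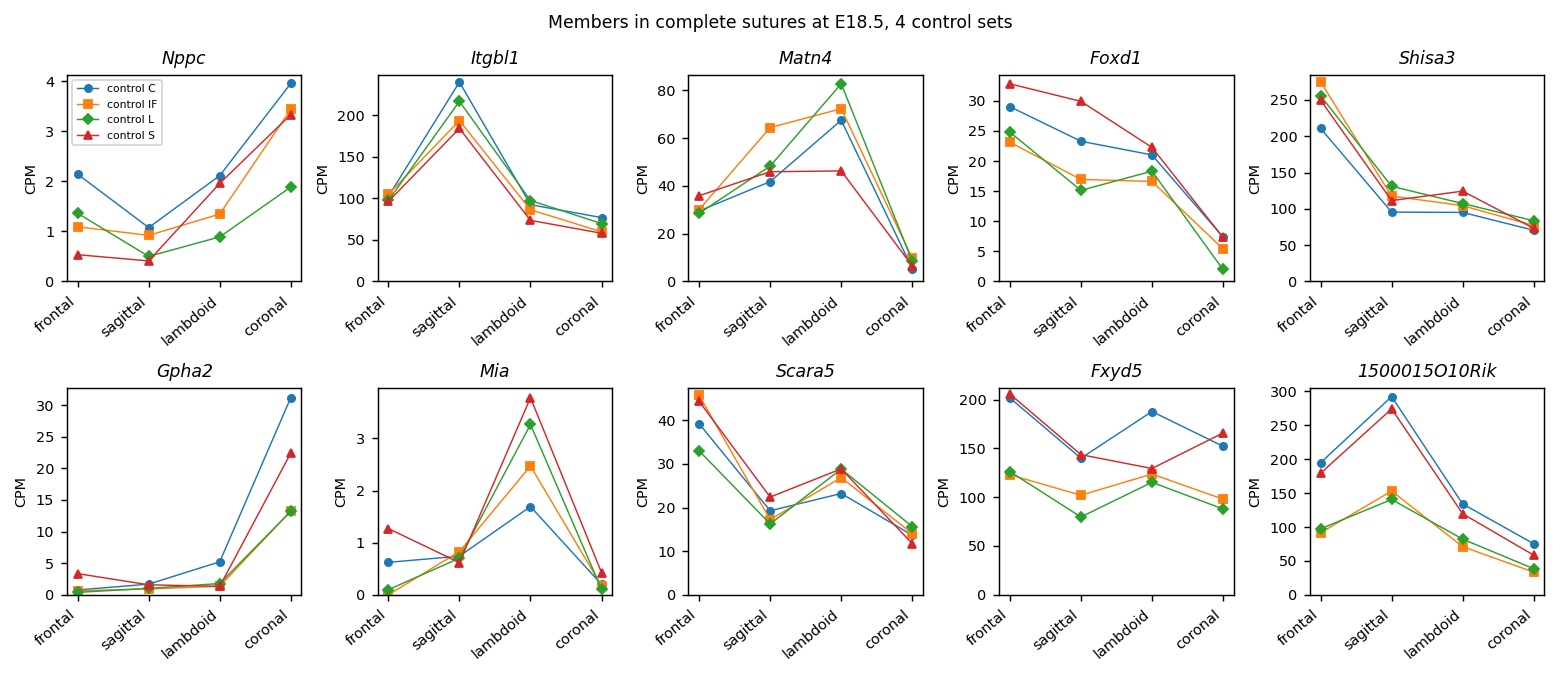
CPM of the members in complete sutures at E18.5 by suture, with a line for each of the 4 title prefixes. 1500015O10Rik peaks in the sagittal suture, Shisa3 in the frontal and Gpha2 in the coronal suture under every prefix, and the means of the prefixes differ by up to 2.41 times (Gpha2).

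Levels at E18.5 and E16.5 were compared in each SM, in each OF and in the means over SMs and over OFs. In SM 4 of 32 tests were higher at E18.5 (3.99% of all gene tests) and 0 lower (4.4%) by edgeR, with 2 lower at an unadjusted p under 0.05, 0 by DESeq2 and 2 by voom. The 4 were Itgbl1 in frontal SM (1.55, adjusted p = 0.015) and coronal SM (1.06, adjusted p = 0.034), Fxyd5 in coronal SM (2.08, adjusted p = 4.4e-07) and Gpha2 in coronal SM (3.86, adjusted p = 0.0020). The frontal Itgbl1 call was lost with total-count scaling (adjusted p = 0.056) and without replicate 3 or 5 (adjusted p = 0.21 and 0.097), and the coronal one without replicate 2, 3 or 5 (adjusted p = 0.11 to 0.20). Coronal SM held 2.23 to 11.6 CPM of Fxyd5 at E16.5 and 21.2 to 47.9 at E18.5, without overlap. The summed macrophage markers of these libraries went from 18.51 to 75.0 CPM at E16.5 to 166 to 255 CPM at E18.5, also without overlap, and their part in the Fxyd5 change was not tested. Gpha2 was at 0, 0.173, 1.05, 0 and 0 CPM in coronal SM at E16.5, and with the second coronal libraries its change was -0.29 (adjusted p = 0.87). Averaged over the 4 SMs, Itgbl1 rose by 0.86 (SE 0.20, adjusted p = 0.00090) and Fxyd5 by 0.54 (SE 0.15, adjusted p = 0.012), where 5.14% of genes were higher and 5.92% lower. The Fxyd5 call was lost with the second coronal libraries (0.34, adjusted p = 0.18) and without replicate 1, 2 or 5 (0.41 to 0.53, adjusted p = 0.054 to 0.073). Fxyd5 did not rise in every SM, its differences running from -0.90 to 2.08, the latter in coronal SM. In frontal SM its mean level was 65.2 CPM at E16.5 and 30.4 CPM at E18.5. Foxd1 was lower by -0.69 in the mean SM and was not called by edgeR. It was called lower with DESeq2 (-0.69, adjusted p = 0.033), voom (-0.75, adjusted p = 0.032) and the second coronal libraries (-0.82, adjusted p = 0.011).

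In the OFs 5 of 48 tests were higher at E18.5 (4.73%) and 0 lower (3.97%) by edgeR, with 10 lower at an unadjusted p under 0.05, 0 by DESeq2 and 1 by voom. All 5 were in the coronal suture. Itgbl1 was higher in the frontal OF by 1.49 and in the parietal OF by 2.23, Fxyd5 by 1.26 and 1.34, and 1500015O10Rik in the frontal OF by 1.24 (adjusted p = 0.0080). With the second coronal libraries the last difference was 0.06 (adjusted p = 0.96), and its call was also lost without replicate 3 or 4 (adjusted p = 0.063 and 0.11). The Itgbl1 call in the frontal OF was lost without replicate 3 (adjusted p = 0.053) and the Fxyd5 call in the parietal OF without replicate 5 (0.88, adjusted p = 0.062). The summed macrophage markers went from 34.0 to 78.5 CPM at E16.5 to 107 to 163 CPM at E18.5 in the coronal frontal OF, without overlap. In the parietal OF they went from 55.7 to 89.4 to 66.9 to 116 CPM. The osteoclast sum was at 40.1 to 60.6, then 85.6 to 117 CPM in the frontal OF, and at 39.0 to 430, then 67.4 to 150 CPM in the parietal OF. The mural cell sum was at 69.0 to 363, then 548 to 1176 CPM in the frontal OF. In the parietal OF it was at 111 to 252, then 345 to 533 CPM. The part of these lists in the Fxyd5 changes was not tested. Averaged over all OFs, Itgbl1 was higher by 0.74 and Fxyd5 by 0.65 (9.3% of genes), and Foxd1 lower by -0.67 (adjusted p = 0.017) and Shisa3 by -0.92 (adjusted p = 0.00034; 8.62% of genes). The Foxd1 call was lost with voom (-0.21, adjusted p = 0.60) and without replicate 1 (-0.45, adjusted p = 0.24) or replicate 5 (-0.55, adjusted p = 0.14). The SM less OF difference changed with age for 0 of 8 members by edgeR, DESeq2 and voom, with 1 of 8 at an unadjusted p under 0.05, where 0.789% of genes were called higher and 0.845% lower. Shisa3 came closest, at 0.84 (adjusted p = 0.16, unadjusted p = 0.0086). Age is confounded with litter here, and the effects of age and litter cannot be told apart.

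The coronal libraries were checked against the second libraries of the same embryos and regions. Over 18 pairs, Fxyd5 was higher in the second library in 18, Gpha2 in 17 and 1500015O10Rik in 16, with medians of 18.6 and 38.1, 0.421 and 3.33, and 4.49 and 12.3 CPM in first and second libraries. Itgbl1 and Shisa3 were higher in 11 and 8 of 18, with medians of 18.9 and 20.4 and of 42.2 and 36.7 CPM. Over all genes tested, the mean log2 difference of second less first, with 0.5 CPM added, had a median of 0.0391. It was below -0.585 for 10% of genes and above 1.09 for another 10%. Even in the second libraries 1500015O10Rik reached at most 24.2 CPM and Matn4 at most 5.83, below the frontal, lambdoid and sagittal SM. With the second libraries in the fit, 1500015O10Rik in coronal SM was lower than in the other SMs by -2.995 at E16.5 (adjusted p = 6.1e-07) and -2.88 at E18.5 (adjusted p = 1.2e-06).

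**Figure D4:**
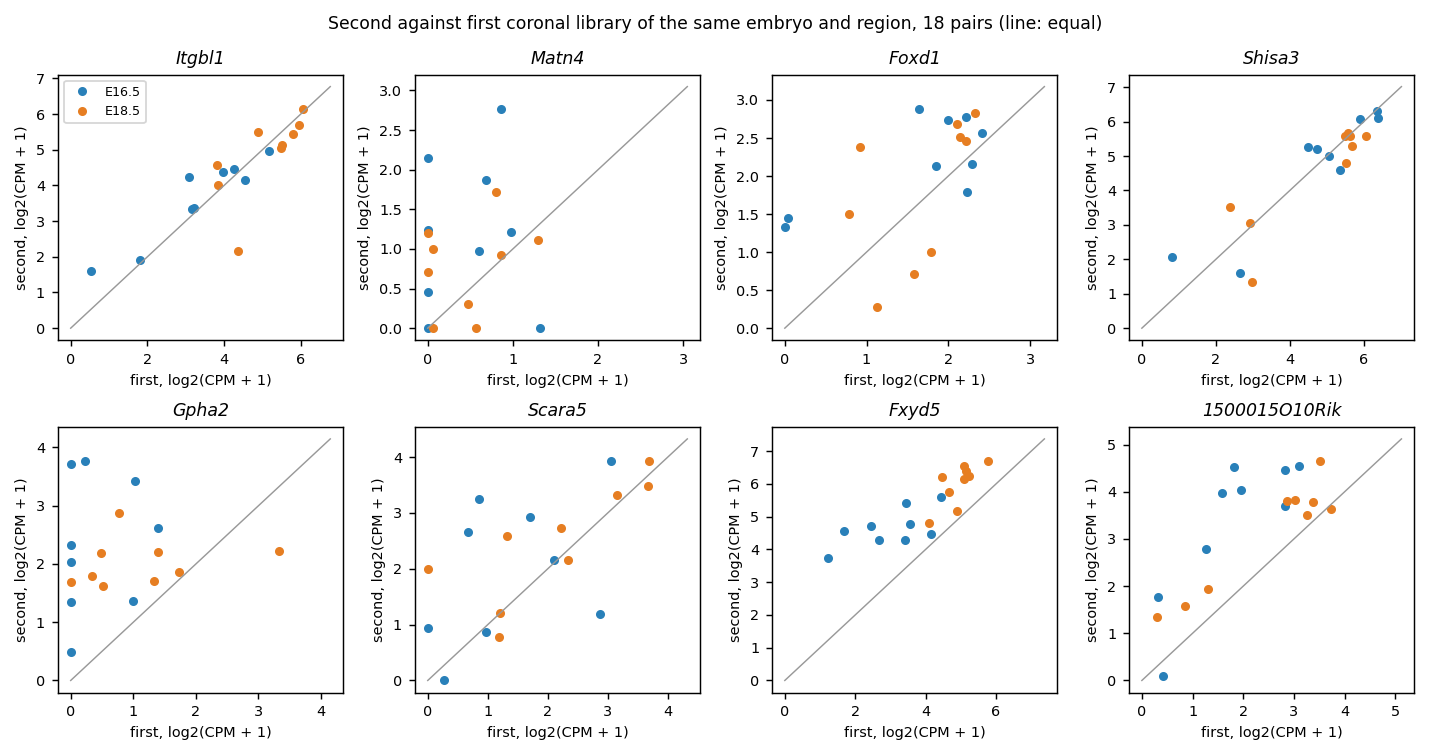
Level of the members in the second against the first coronal library of the same embryo and region as log2(CPM + 1), 18 pairs coloured by age, with the line of equality. Points for Fxyd5, Gpha2 and 1500015O10Rik lie mostly above the line, and those for Itgbl1 and Shisa3 scatter around it.

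Among the 24 other dura genes of the single-cell list, 16 were higher in SM over the 12 comparisons, 4 lower and 4 not called, with a median of 0.76 against 0.041 for all genes. The list was drawn up with earlier results of these data known. The 3 highest were Fmo1, a monooxygenase, at 1.86, Col14a1, a fibril-associated collagen, at 1.82 and Rassf2 at 1.52. The 3 lowest were transporters: Slc16a1 at -0.96, Slc5a6 at -0.44 and Slc12a2 at -0.28. The summed level of the 24 genes was 1065 to 4402 CPM in SM, with a median of 2858, and 694 to 2227 CPM in OFs, with a median of 1279.

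Markers of other tissues were counted in the same SM less OF comparison, in which 28.6% of all genes were higher and 27.9% lower. All 10 osteoblast genes were lower in SM, and their sum was 5530 to 38177 CPM in SM and 16798 to 59418 in OFs. All 7 macrophage genes were higher, as were 7 of 9 ectocranial and suture mesenchyme genes (1 lower), 5 of 6 mural cell genes (1 lower), 5 of 11 cartilage genes (3 lower) and 3 of 7 hypodermis genes. Of the arachnoid and pia list 2 of 9 were higher, of brain 2 of 6 (1 lower) and of skeletal muscle 2 of 5. All 5 proliferation genes were lower. No gene of the endothelium (7 tested), osteoclast (4) or erythroid (5) lists was called. Brain markers summed to 166 to 211 CPM in 3 of the 5 sagittal SM libraries of E18.5 and 80.4 to 127 CPM in the OF of the same embryos, and to 22.3 to 27.9 CPM in the other two SM libraries. 1500015O10Rik was at 165 and 131 CPM in the latter and at 120 to 154 CPM in the former. The part of these lists in the members' levels was not tested.

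Among libraries of the same group, the members did not move as 1 block. With each library taken as its deviation from its group mean over the 100 libraries, Itgbl1 correlated with the mean of the other members at r = 0.50, 1500015O10Rik at 0.46, Shisa3 at 0.30, Foxd1 at 0.14, Matn4 at 0.06, Scara5 at -0.07, Gpha2 at -0.18 and Fxyd5 at -0.19. Against the summed further dura genes, Foxd1 stood at 0.51, 1500015O10Rik at 0.42, Itgbl1 and Shisa3 at 0.34 and Matn4 at -0.07. Scara5 correlated with the hypodermis sum at 0.39 and with the arachnoid and pia sum at 0.41. The libraries share embryos, scaling and depth sets, so these are descriptions. The 10 genes that deviated most like the members' mean were Igf1 (r = 0.72), Lama2, Zim1, Rassf2, Axl, Bnc2, Rtl3, Fbn2, Sfrp2 and Fmo1 (r = 0.61). Rassf2 and Fmo1 belong to the further dura genes.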

How the data were processed

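Captured tissue and complete sutures were measured by RNA-seq and the coronal suture also by droplet single-cell RNA-seq. The authors trimmed reads with cutadapt, aligned them to mm10 with STAR 2.5.3a and counted exons without strand with featureCounts 1.6.4, and the deposited values are raw counts per gene. The deposited single-cell matrices hold counts of UMIs per gene and cell. 1 deposited file, which holds the authors' own comparisons, was not used. Symbols were matched for 55394 of 55487 gene identifiers. Gene positions, exon lengths and overlaps come from GENCODE vM21 of the same assembly.

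The 134 bulk tables were 100 first, 18 second and 16 complete-suture libraries. First libraries were grouped by suture, region and age from the labels. Genes with 1 CPM in over 10% of the 100 libraries (19768) were fitted together with TMM scaling and edgeR 4.0.16 quasi-likelihood tests in R 4.3.3, 1 mean per group, with Benjamini-Hochberg adjustment over all genes and a call at an adjusted p under 0.05. Second libraries entered as an alternative only. Alternatives were median-ratio and total-count scaling, other filters, DESeq2 1.42.0, limma 3.58.1 (voom), each suture and age by itself, the embryo as a replicate block and each replicate left out. The fit was tested on simulated data. P-values rest on the spread between the 5 embryos within groups, estimated for each gene over all groups together and without pairing of embryos.

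The labels give each captured library a litter identifier with a running number, which same-numbered libraries of a suture and age share, and libraries with the same identifier were taken as 1 embryo. Same-embryo pairs of an SM and an OF deviated from their group means with a median correlation of 0.0505 (60 pairs, 16 over 0.1), and pairs of unlike embryos with -0.0121 (240 pairs, 13 over 0.1).

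Single cells were kept with more than 800 detected genes and within 3 median absolute deviations of the median of log UMIs and log detected genes. Their mitochondrial share was at most 3 such deviations above its median. They were clustered per age with scanpy 1.11.5 on 2000 variable genes without the members, 13 principal components, 100 neighbours and a Leiden resolution of 0.8, and named from marker lists. Shares of cells are after thinning to 2000 UMIs, with shallower cells left out and with 95% Wilson intervals, which cover counting error only. No doublet caller was run. Cell counts per cluster were not compared between ages, which differ in chemistry.

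The members and all gene lists were chosen with earlier results of these data known. Named were all members, the 3 further dura genes called with the largest difference in each direction, and the 10 genes most correlated with the members' mean deviation. Lists were further dura genes, arachnoid and pia, cartilage, osteoblast, ectocranial and suture mesenchyme, hypodermis, endothelium, mural cells, macrophages, osteoclasts, erythroid cells, brain, skeletal muscle and proliferation.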

Additional observations from a re-analysis of the deposited data

Results flagged for a closer look

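Of 145 member and group combinations with a mean of at least 1 CPM, 14 had 1 library of the 5 far from the other 4, its gap to the nearest being over 0.71 of the range. Chance gives about 1 in 20. In lambdoid SM at E16.5 the same embryo, number 4, was far for 3 members, with Itgbl1 at 92.7, Fxyd5 at 15.9 and 1500015O10Rik at 92.2 CPM, and it was the lowest of its group for Scara5. Itgbl1 was also far at 27.4 CPM in the lambdoid interparietal OF and at 120 CPM in the lambdoid SM of E18.5, both in embryo 1. Matn4 was far at 5.79 CPM in the coronal frontal OF and at 5.84 CPM in the lambdoid parietal OF, both of E18.5. Foxd1 was far at 8.35 CPM in the lambdoid interparietal OF of E16.5. Shisa3 was far at 149.95 CPM in frontal SM of E18.5, at 32.3 CPM in the coronal parietal OF of E16.5, and on the low side at 21.5 CPM in the coronal frontal OF of E18.5. Gpha2 was far at 4.66 CPM in the sagittal parietal OF of E18.5. Scara5 was far at 7.28 CPM in the coronal parietal OF and at 5.44 CPM in coronal SM, both of E16.5.

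For 3 members the direction within embryos was opposite in different comparisons of SM with OF, and the difference between those comparisons was not tested. How many of all genes do so was not counted, so this number is not read as a result about the members. Scara5 was higher in SM in all 5 embryos of 6 comparisons and lower in all 5 of 1 comparison. Fxyd5 was higher in all 5 embryos of 2 comparisons and lower in all 5 of 1. Gpha2 was higher in all 5 embryos of 1 comparison and lower in all 5 of 1.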

How the results depend on the processing

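Of 99 member differences that were called, 69 kept their call and direction in every alternative that was run for them. Among them were the mean SM less OF of Itgbl1, Matn4, Shisa3 and 1500015O10Rik. The replicate block was run only for differences of SM less OF. The fit of each suture and age by itself was run only for single comparisons of an SM with an OF. Calls higher in SM than in an OF ran from 34 to 42 against 38. Calls lower in SM were 3, and 1 with total-count scaling, 1 with the second coronal libraries and 0 to 6 with 1 replicate left out. SM calls between ages were 4 higher, and 2 to 5 with 1 replicate left out, and 0 lower, but 1 with total-count scaling, 2 with voom and 0 to 1 with 1 replicate left out. OF calls lower at E18.5 were 0, but 1 with voom and 0 to 1 with 1 replicate left out. The cause was not tested. With the embryo as a replicate block, the calls of Gpha2 and Foxd1 given above changed and no other call of SM less OF did. The mean SM less OF of Foxd1 was called under 7 other alternatives too.

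Values that changed sign were mostly near 0. For the mean SM less OF these were Scara5 (voom -0.289; leaving out 1 replicate -0.363 to 0.497) and Fxyd5 (total counts 0.0039, second coronal libraries 0.011). For the change of that difference with age they were Foxd1 (total counts -0.0029, voom -0.486, second coronal libraries -0.185, replicate block -0.240, leaving out 1 replicate -0.211 to 0.139), Gpha2 (second coronal libraries -0.650, leaving out 1 replicate -0.0968 to 1.16), Fxyd5 (second coronal libraries -0.196), and with 1 replicate left out Itgbl1 (-0.029 to 0.126), Matn4 (-0.447 to 0.441) and Scara5 (-0.802 to 0.423). For the mean SM between ages they were Gpha2 (second coronal libraries -0.280), Matn4 (leaving out 1 replicate -0.434 to 0.0565) and 1500015O10Rik (voom 0.0363, leaving out 1 replicate -0.157 to 0.0411). For the mean OF between ages they were Matn4 (total counts 0.0068, leaving out 1 replicate -0.721 to 0.262) and 1500015O10Rik (voom 0.0792, leaving out 1 replicate -0.152 to 0.0845). With the second coronal libraries, Gpha2 in coronal SM between ages was -0.294, Fxyd5 in coronal SM less parietal OF at E16.5 was 0.246 and Fxyd5 in coronal SM less the other SMs at E16.5 was 0.0900.

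With each suture and age fitted by itself, Shisa3 in coronal SM less frontal OF at E16.5 was 1.40 (adjusted p = 0.26) and 1500015O10Rik less parietal OF 2.58 (adjusted p = 0.16). The mean SM difference of Fxyd5 between ages, 0.54, was 0.343 with the second coronal libraries (adjusted p = 0.18). In the single cells, which chose the genes, 6 and 8 members were highest in dura mater-like cells under every clustering tried. This is a description.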
